A study of Danio rerio with 6 samples.

Results

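This section describes the transcription factors that set and hold lymphocyte identity, in zebrafish acute lymphoblastic leukaemia (ALL), in which immature lymphocytes grow as a tumour. The group was defined by function as 10 genes, pax5, ebf1a, pou2af1, bcl6aa, gata3, bcl11ba, bcl11bb, tox, ikzf1 and ets1, out of 29095 rows in the count tables. Of these, 6 had a row under the exact symbol, ets1 and pou2af1 had a row in capital letters (ETS1, POU2AF1), and bcl6aa had a row under its older RefSeq symbol bcl6a. These 9 rows are the members. No row matched bcl11bb by symbol or listed synonym. A row named BCL11B (2 of 2), a second BCL11B copy in the authors' annotation, is given beside bcl11ba under its own name and is not counted. This row may be bcl11bb, which names alone could not settle.

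Cells of 3 tumours, numbered 1404, 1279 and 1314, from fish of strain CG2 were sorted by flow cytometry into a side population (SP) and a non-side population (nonSP). By convention the side population is the fraction that exports a DNA-binding dye. Each tumour gave 1 library per fraction, so there were 3 SP and 3 nonSP libraries, and all 6 come from leukaemia, with no normal lymphocytes among the samples used here. The sources used here do not give the oncogene or transgene behind the tumours, nor whether they arose in separate fish. The p-values therefore speak of these 3 pairs only.

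B and T lymphocytes arise from a common progenitor, and each branch is fixed by its own factors. In mammals EBF1 and PAX5 commit cells to the B lineage, PAX5 silences genes of other lineages, and POU2AF1 is a coactivator of octamer-binding factors in B cells. GATA3 and BCL11B drive T cell commitment in the thymus, and TOX, a high-mobility-group protein, is needed for CD4 T cell development. IKZF1 (Ikaros) and ETS1 act in both branches, and BCL6 is a repressor of germinal centre B cells and follicular helper T cells.

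Library totals ranged from 45121124 to 55981608 counts in SP and from 30213658 to 62398607 in nonSP. Levels below are CPM, counts scaled to a common library size and corrected by TMM factors for differences in composition between libraries. They are not divided by gene length, so each gene is compared with itself only. A count of 0 allows up to 0.0313 to 0.0462 CPM in the SP libraries and 0.0661 to 0.169 CPM in the nonSP libraries (3 counts), and such limits cover counting error alone. With 1 library per fraction and tumour, differences between tumours have no replicate and were not tested.

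Each of the 3 B lineage factors was lowest in tumour 1279, and pax5 was nearly absent from it. pax5 had 1608 counts in SP and 1086 in nonSP of tumour 1404, 1608 and 1486 in tumour 1314, but 2 and 2 in tumour 1279. In CPM this was 23.8 in SP and 25.5 in nonSP of tumour 1404, 16.8 and 32.8 in tumour 1314, and 0.0308 and 0.113 in tumour 1279. Both tumours with pax5 thus stood far above tumour 1279 in either fraction. On raw totals the ratio of SP 1404 to SP 1279 was 648 (exact 95% counting interval 179 to 5360).

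ebf1a was also lowest in tumour 1279, with a smaller gap, and highest in tumour 1404. It reached 62.3 CPM in SP and 58.9 CPM in nonSP of tumour 1404, 30.2 and 12.6 CPM in tumour 1314, and 2.42 and 1.35 CPM in tumour 1279, where 157 and 24 reads were counted. Unlike pax5, ebf1a was therefore counted well above 0 in tumour 1279. POU2AF1 was high in tumour 1404 alone, at 10.3 CPM in SP and 9.29 CPM in nonSP. In tumour 1314, in which pax5 was high, POU2AF1 had only 10 counts in SP and 7 in nonSP, and in tumour 1279 it had 1 in each.

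The T lineage factors were highest in tumour 1279. gata3 reached 88.3 CPM in SP and 65.3 CPM in nonSP of tumour 1279, against 7.79 and 3.50 CPM in tumour 1404 and 1.26 and 0.507 CPM in tumour 1314. tox was counted almost only in tumour 1279, with 3059 counts in SP and 698 in nonSP (47.1 and 39.3 CPM), against 4 and 0 counts in tumour 1404 and 1 and 0 in tumour 1314. The ratio of SP 1279 to SP 1404 for tox was 949 on raw totals (exact 95% counting interval 370 to 3480).

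bcl11ba separated all 3 tumours. It stood at 91.5 CPM in SP and 71.1 CPM in nonSP of tumour 1279, at 25.4 and 13.0 CPM in tumour 1404, and at 0.323 CPM (31 counts) and 0 counts in tumour 1314. Tumour 1404 therefore held bcl11ba, with 1715 counts in SP and 553 in nonSP, together with pax5 and ebf1a. The row BCL11B (2 of 2) did not share this intermediate level. It had 17981 counts in SP and 2739 in nonSP of tumour 1279 (277 and 154 CPM), against 2 and 5 counts in tumour 1404 and 5 and 0 in tumour 1314.

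**Figure D1:**
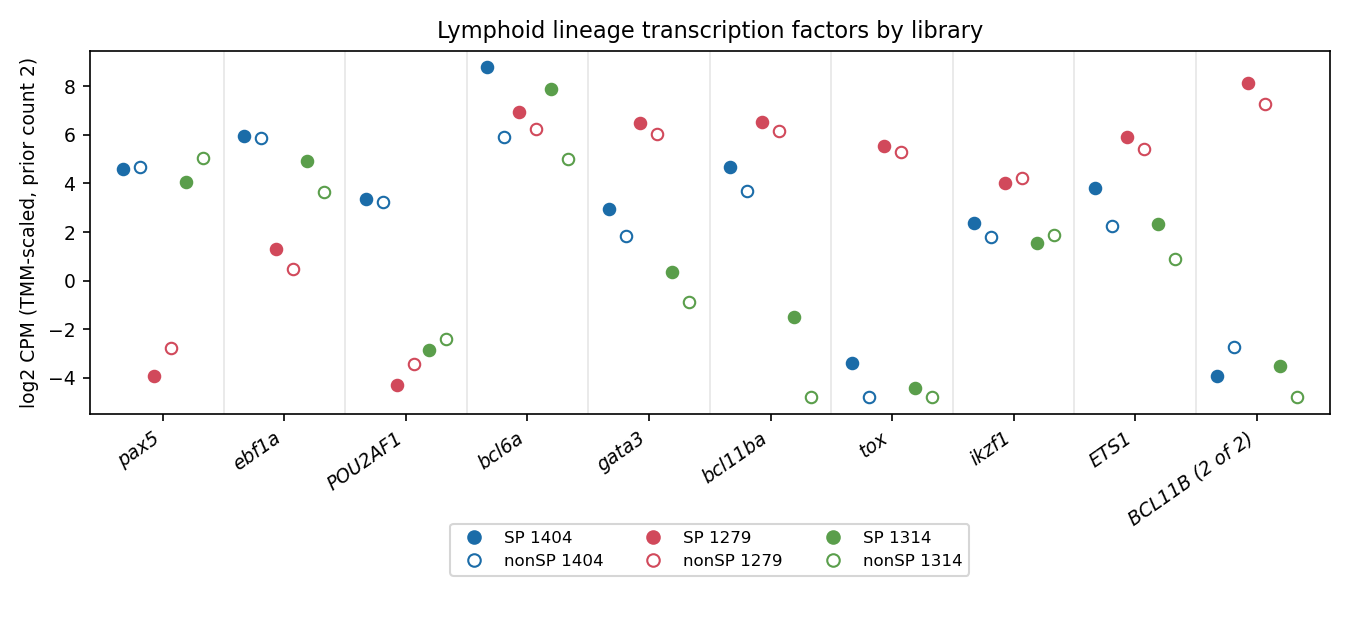
Level of each member and of the row BCL11B (2 of 2) in the 6 libraries, as log2 CPM scaled by TMM with a prior count of 2; filled points are SP, open points nonSP, and colours mark the tumours. pax5 and ebf1a are lowest in tumour 1279, and gata3, bcl11ba, tox, ikzf1, ETS1 and BCL11B (2 of 2) are highest there in both fractions; levels are to be read within a gene.

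The factors shared by both lineages were counted in all 6 libraries. ikzf1 stood at 16.3 CPM in SP and 18.6 CPM in nonSP of tumour 1279, at 5.21 and 3.45 CPM in tumour 1404, and at 2.89 and 3.66 CPM in tumour 1314. ETS1 stood at 60.3 CPM in SP and 42.3 CPM in nonSP of tumour 1279, at 13.9 and 4.74 CPM in tumour 1404, and at 5.02 and 1.83 CPM in tumour 1314. Both were higher in tumour 1279 than in the other tumours in either fraction, while tumours 1404 and 1314 overlapped. bcl6a varied more with the fraction than with the tumour, with 438 CPM in SP and 60.5 CPM in nonSP of tumour 1404, 121 and 75.1 CPM in tumour 1279, and 239 and 32.1 CPM in tumour 1314.

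The span from the lowest to the highest tumour was larger than the mean difference between fractions for every member other than bcl6a. Taking the mean log2 CPM of both fractions, the highest and lowest tumour were 7.95 apart for pax5, 5.04 for ebf1a, 7.16 for POU2AF1, 6.50 for gata3, 9.47 for bcl11ba, 10.04 for tox, 2.41 for ikzf1 and 4.04 for ETS1, but 0.89 for bcl6a. The mean size of the SP to nonSP log2 ratio ran from 0.37 (ikzf1) to 1.55 (bcl11ba) in those 8 genes and was 2.15 for bcl6a. These measures are unlike, because a span takes the extremes of the tumours and so tends to exceed a mean difference. How many of all tested genes show the same order was not counted. Over the 15770 tested genes, deviations from the group means correlated between the fractions of a tumour at 0.753 (1404), 0.839 (1279) and 0.818 (1314). Likeness within a tumour was thus not particular to these factors. Of the 8 members with enough counts to be tested between fractions, 5 had a span above 5, a limit chosen after the values were seen, against 4.15% of the 15770 tested genes. The median span was 5.77 in these members and 1.62 in all tested genes. The members were chosen by function with earlier results of these data known, so this contrast is a description only. tox, the remaining member, had too few counts outside tumour 1279 to enter the test.

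Markers of the lineages were set beside the factors to check the labels. All 6 libraries held rag2, a component of the recombinase of immature lymphocytes, at 27.6 to 69.0 CPM in SP and 69.0 to 209 CPM in nonSP. cd79b, a chain of the B cell receptor, had 630 counts in SP and 291 in nonSP of tumour 1404 and 537 and 320 in tumour 1314, against 1 and 0 in tumour 1279. The B cell adaptor blnk, the kinase syk and the tetraspanin CD37 had 0 counts in both fractions of tumour 1279. In SP 1404 blnk was 610-fold above the floor of 3 counts in SP 1279. The near absence of pax5 from tumour 1279 thus coincided with that of these transcripts, though cd79a had 95 counts in SP and 22 in nonSP. Other genes of the B cell list did not share this pattern. cd22 had 16 counts in SP and 24 in nonSP of tumour 1279 and 0 in the other libraries, and bcl10 was highest in tumour 1279, at 90.1 CPM in SP and 65.1 CPM in nonSP. cd83 stood at 30.9 CPM in SP and 18.2 CPM in nonSP of tumour 1279, and at 28.6 and 15.1 CPM in tumour 1404.

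Several T cell markers, though not the whole list, were highest in tumour 1279. The kinase gene lck stood at 237 CPM in SP and 286 CPM in nonSP of tumour 1279, at 4.23 and 12.8 CPM in tumour 1404 and at 13.3 and 23.2 CPM in tumour 1314. The co-receptor genes cd4 and cd8a had 8726 and 2257 counts in SP of tumour 1279 and 1682 and 447 in nonSP. In tumour 1314 cd8a had 0 counts in SP and 1 in nonSP. In tumour 1404, where bcl11ba was at an intermediate level, cd4 had 999 counts in SP and 353 in nonSP and cd8a 63 and 26. A T cell gene, zap70, was also counted in the tumours with pax5, at 42.4 CPM in SP and 42.1 CPM in nonSP of tumour 1404.

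**Figure D2:**
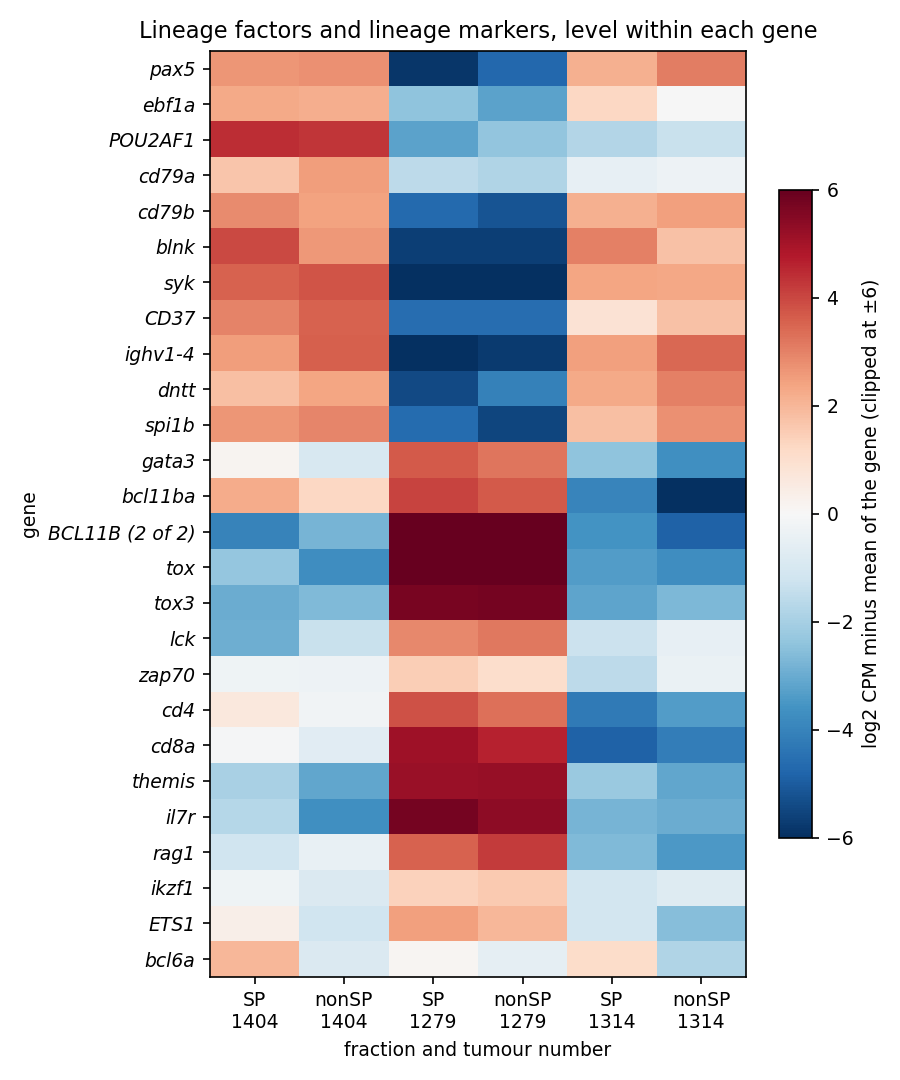
Log2 CPM of lineage factors and lineage markers (rows) in the 6 libraries (columns), each gene minus its own mean, clipped at 6 in either direction. The rows are a selection. Genes of the B and T cell lists with other patterns, among them bcl10, cd83, cd22, ccr9a, dusp2 and TXK, are not shown. Among the rows shown, those from pax5 to spi1b are low in both fractions of tumour 1279. gata3, tox, tox3, cd8a, themis and il7r are high there, and the fractions of a tumour resemble each other.

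Summed over its 24 genes, the list of T cell markers reached 3580 CPM in SP and 965 CPM in nonSP of tumour 1404, 2500 and 1580 CPM in tumour 1279, and 582 and 341 CPM in tumour 1314. The chemokine receptor gene ccr9a, with 200655 counts in SP of tumour 1404, made up much of these sums. In SP the sum was highest in tumour 1404, unlike gata3, and in nonSP it was highest in tumour 1279, as gata3 was. dusp2 was likewise highest in SP of tumour 1404, and TXK was highest in tumour 1314 in both fractions. The list of 24 B cell markers summed to 573 CPM in SP and 361 CPM in nonSP of tumour 1404, 162 and 130 CPM in tumour 1279, and 510 and 595 CPM in tumour 1314. In bulk RNA, fewer cells of a type and less RNA per cell cannot be told apart, and this holds for every difference given here.

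Between the fractions of a tumour, 2 of the 8 tested members were higher in SP and 0 were lower, at an adjusted p below 0.05. Of all 15770 tested genes 22.4% were called, 13% higher and 9.4% lower in SP, so 2 of 8 is near the background. Neither of the 2 was among the rows with an exact symbol, of which 0 passed. The tested members had a median log2 fold change of 0.83, against 0.09 over all tested genes. The test was the quasi-likelihood test of edgeR, blocked by tumour, with Benjamini-Hochberg adjustment over all tested genes. Its standard errors (SE) borrow most of their weight from the spread of other genes.

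bcl6a, the repressor gene, was higher in SP in all 3 tumours. It averaged 266 ± 160 CPM in SP and 55.9 ± 21.9 CPM in nonSP (SD, n = 3 each), and the lowest SP library, that of tumour 1279 at 121 CPM, was above the highest nonSP library at 75.1 CPM. All SP libraries were above all nonSP libraries in 8.64% of tested genes. The log2 fold change was 2.18 ± 0.46 (SE, n = 3 pairs; edgeR adjusted p = 0.00179), or 4.53-fold, with ratios of 2.86, 0.69 and 2.89 in tumours 1404, 1279 and 1314. The ratio in tumour 1279 was thus the smallest of the 3. The same was so for ETS1, gata3 and bcl11ba, but not for ebf1a or ikzf1. The bcl6a call held without each tumour in turn, at 1.68 without tumour 1404, 2.89 without tumour 1279 and 1.78 without tumour 1314.

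ETS1 was also higher in SP in 3 of 3 tumours, and the range of the SP libraries overlapped that of the nonSP libraries. It averaged 26.4 ± 29.7 CPM in SP and 16.3 ± 22.6 CPM in nonSP (SD, n = 3 each). The log2 fold change was 1.17 ± 0.38 (SE, n = 3 pairs; edgeR adjusted p = 0.0276), or 2.25-fold, with ratios of 1.54, 0.51 and 1.44. This call rested on all 3 pairs. Without tumour 1404 it was 0.85 (edgeR adjusted p = 0.111), without tumour 1279 it was 1.52 (0.0516) and without tumour 1314 it was 1.03 (0.195).

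The T lineage factors gata3 and bcl11ba had positive ratios in every tumour and did not pass. gata3 had a log2 fold change of 0.94 ± 0.38 (edgeR adjusted p = 0.0733, n = 3 pairs), with ratios of 1.15, 0.44 and 1.26. bcl11ba had 1.14 ± 0.49 (edgeR adjusted p = 0.0914), and its ratios were 0.97, 0.36 and 3.32. The last ratio rests on 31 counts against 0 in tumour 1314, where SP was 4.89-fold above the floor of 3 counts in the nonSP library. That value leaves out the counting error of the 31 counts. Positive ratios in 3 of 3 tumours occurred in 31.2% of all tested genes. Within tumour 1279, where both are high, gata3 and bcl11ba had the smallest of their 3 ratios, and tox stood at 47.1 CPM in SP and 39.3 CPM in nonSP (log2 ratio 0.26).

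The B lineage factors did not pass either, and the sign of their ratios differed between genes. pax5 had a log2 fold change of -0.63 ± 0.43 (edgeR adjusted p = 0.297, n = 3 pairs). In the tumours that express it, its ratio was -0.10 in tumour 1404 and -0.97 in tumour 1314. ebf1a had 0.72 ± 0.39 (edgeR adjusted p = 0.18), with ratios of 0.08 and 1.26 in those tumours and 0.82 in tumour 1279. Its ratios were thus positive in every tumour, as for gata3 and bcl11ba. With TMM factors pax5 was therefore lower and ebf1a higher in SP than in nonSP of tumour 1314, a difference in a single pair that was not tested. With library totals the ratios in that tumour were 0.14 for pax5 and 2.36 for ebf1a, so the sign for pax5 depended on the scaling. POU2AF1 stood at -0.21 ± 0.55 (edgeR adjusted p = 0.821), with a ratio of 0.15 in tumour 1404. ikzf1 stood at 0.02 ± 0.38 (edgeR adjusted p = 0.982). Its ratio was 0.59 in tumour 1404, -0.19 in tumour 1279 and -0.34 in tumour 1314, and leaving out tumour 1404 gave -0.38.

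**Figure D3:**
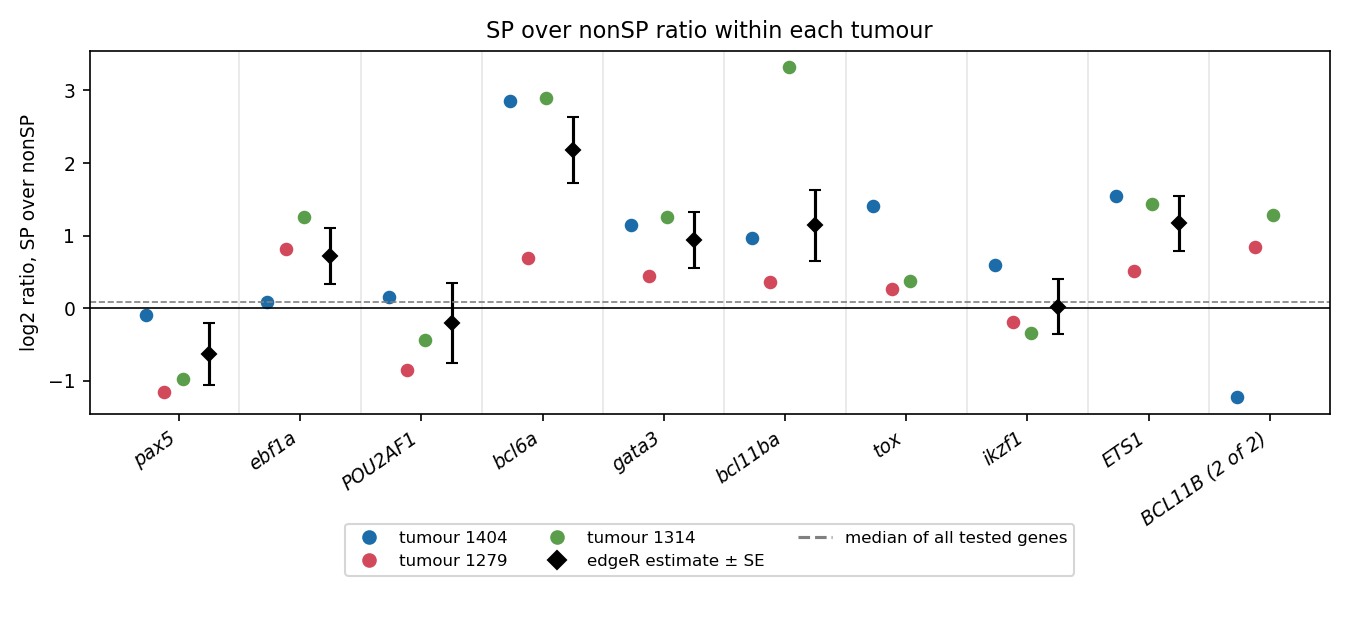
Log2 ratio of SP over nonSP within each tumour (coloured points) and edgeR's log2 fold change with its SE (black diamonds, n = 3 pairs), with the median of all tested genes as a dashed line. bcl6a and ETS1 passed the test, at 2.18 and 1.17; tox and BCL11B (2 of 2) were not tested, and ratios in libraries with few counts are pulled towards 0 by the prior count.

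The choice of scaling moved all members together. With library totals in place of TMM factors, the median over all tested genes was 1.15 on the log2 scale, a shift of 1.07. With them 50.8% of all tested genes and 6 of the 8 members were called higher in SP, now including gata3 (2.02), bcl11ba (2.19), ebf1a (1.78) and ikzf1 (1.09). pax5 and POU2AF1 turned positive, at 0.35 and 0.70, and were not called. Relative to the median of all genes, bcl6a and ETS1 stayed above it and pax5 and POU2AF1 below it with TMM, RLE, upper-quartile factors and library totals.

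**Figure D4:**
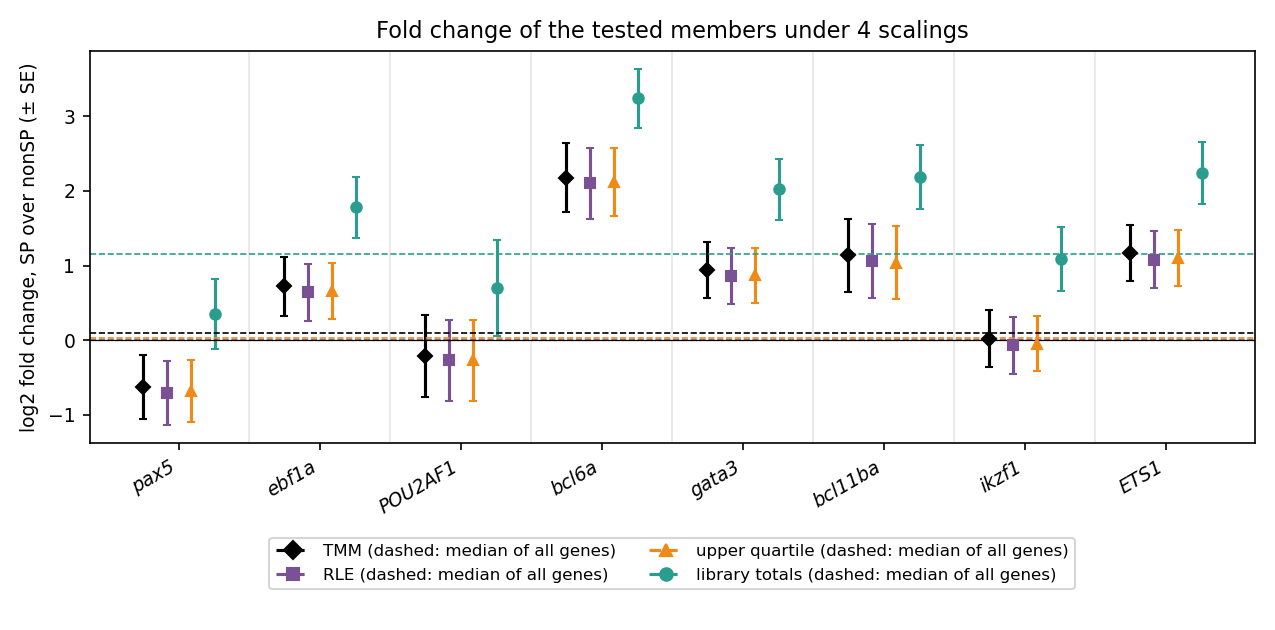
Log2 fold change of SP over nonSP with its SE for the 8 tested members under TMM, RLE and upper-quartile factors and library totals (n = 3 pairs), with the median of all tested genes under each scaling as a dashed line in its colour. Library totals raise every member by about the shift of the median, 1.07, so that the order of the members changes little.

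Paralogues of the members had their own patterns over the tumours. bcl11aa, a relative of bcl11ba that in mammals acts in B cell and haemoglobin control, had 574 counts in SP and 156 in nonSP of tumour 1404 and 1528 and 292 in tumour 1314, against 3 and 1 in tumour 1279. It thus followed pax5 over the tumours and not bcl11ba. tox3 had 1735 counts in SP and 489 in nonSP of tumour 1279 and 2 counts in each of the other 4 libraries. Like tox, it was thus counted almost only in tumour 1279. tox2 stood at 7.85 to 24.5 CPM in SP and 8.12 to 16.3 CPM in nonSP. IKZF2 (Helios) was lowest where ikzf1 was highest, at 2.09 CPM in SP and 3.78 CPM in nonSP of tumour 1279, against 19.1 and 34.4 CPM in tumour 1404 and 43.2 and 22.3 CPM in tumour 1314. ets2 was highest in SP of tumour 1404, at 679 CPM, with 189 CPM in nonSP of that tumour.

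Among the remaining paralogues bcl6ab was the only one called between fractions. It stood at 16.5 CPM in SP and 4.11 CPM in nonSP of tumour 1404, 14.1 and 10.1 CPM in tumour 1279, and 0.844 and 0.397 CPM in tumour 1314. Its log2 fold change was 1.2 ± 0.42 (edgeR adjusted p = 0.0394, n = 3 pairs). It did not pass without tumour 1404 (0.61, edgeR adjusted p = 0.386), tumour 1279 (1.61, 0.0573) or tumour 1314 (1.25, 0.0931), nor with RLE (1.11, 0.0594) or upper-quartile factors (1.13, 0.0528). ikzf5 stood at 3.92 to 8.73 CPM in SP and 4.59 to 10.7 CPM in nonSP, and gata2a at 0.631 to 1.46 CPM and 0.0564 to 1.68 CPM. ebf1b, BCL6B, bcl11ab and IKZF4 had at most 15 counts in any library, and no row matched ikzf3.

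**Figure D5:**
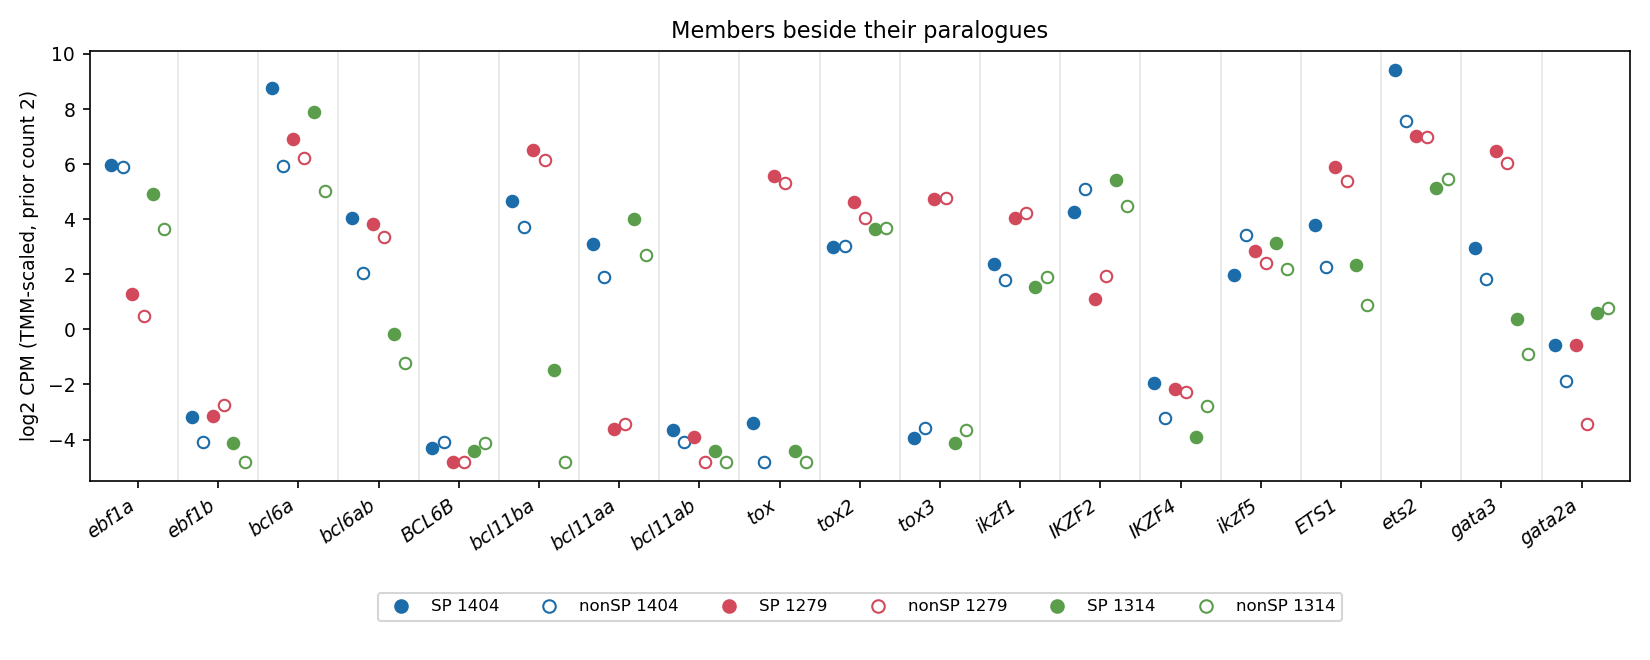
Log2 CPM (TMM-scaled, prior count 2) of 7 members beside their paralogues in the 6 libraries; filled points are SP, open points nonSP, and colours mark the tumours. tox3 shares the restriction of tox to tumour 1279, bcl11aa is low there, and IKZF2 is lowest there while ikzf1 is highest; levels are to be read within a gene.

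A wider list of 79 other transcription factors of lymphocytes and their progenitors was set beside the members. Rows matched 72 of them and 56 were tested. In SP 13 were higher and 2 were lower, so that 26.8% were called, against 22.4% of all tested genes. Their median log2 fold change was 0.49. irf4b, runx3, bach2a, rorcb, foxo1a, xbp1, tal1, nfatc1, mef2ca, bach2b, zbtb7a, satb1a and bcl6ab were higher, and fli1b and nfil3 were lower. satb1a had few counts in nonSP, 3, 10 and 0 in tumours 1404, 1279 and 1314. A separate and more abundant row, SATB1, was not called (0.92, edgeR adjusted p = 0.115). Without tumour 1404 xbp1 (0.86), mef2ca (0.89), zbtb7a (0.60) and satb1a (1.35) did not pass, without tumour 1279 zbtb7a (1.43) did not, and without tumour 1314 foxo1a (1.32), bach2b (1.22) and satb1a (1.97) did not. With RLE factors zbtb7a (1.32, edgeR adjusted p = 0.0508) and satb1a (2.27, 0.0541) did not pass, nor did satb1a with upper-quartile factors (2.28, 0.0528). Genes on this list beyond the 6 with the lowest p and the paralogues were named after their values were seen.

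runx3, a factor of cytotoxic T cell differentiation in mammals, stood at 77.7, 389 and 79.3 CPM in SP and 7.23, 181 and 15.2 CPM in nonSP of tumours 1404, 1279 and 1314, a log2 fold change of 2.31 ± 0.45 (edgeR adjusted p = 0.000976; 1.63 without tumour 1404 and 2.92 without tumour 1279). Like the T lineage members it was highest in tumour 1279. It passed where gata3 and bcl11ba did not, but the difference between these genes was not tested. bach2a, whose mammalian counterpart is a repressor in B and T cells, rose by 2.10 ± 0.45 (edgeR adjusted p = 0.0021), with ratios of 2.54, 1.76 and 1.90. rorcb, of the ROR nuclear receptors, rose by 1.68 ± 0.38 (edgeR adjusted p = 0.00344), with ratios of 2.10, 1.41 and 1.52. irf4b had the lowest p of the list, with ratios of 3.97, 1.67 and 2.46.

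nfil3 had a log2 fold change of -1.49 ± 0.38 (edgeR adjusted p = 0.00697), at 47.6, 0.892 and 8.18 CPM in SP and 121, 3.44 and 19.5 CPM in nonSP. fli1b, an ETS family gene like ETS1, had -1.48 ± 0.37 (edgeR adjusted p = 0.00666) and ratios of -0.98, -1.98 and -1.46. ETS1 and fli1b therefore moved in opposite directions in all 3 tumours. Without tumour 1279 neither nfil3 (-1.28, edgeR adjusted p = 0.0915) nor fli1b (-1.21, 0.101) passed, and with library totals they stood at -0.43 and -0.40 and did not pass. The median of all tested genes was 1.15 with library totals, against 0.09 with TMM, so both genes stayed below it.

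The genes most like each member over the 6 libraries were found by the root mean square (RMS) difference of log2 CPM after centring each gene. Only tested genes above a level limit were compared, and those with clone or locus names were left out. The nearest to pax5 was ighv1-4, an immunoglobulin heavy-chain segment, at 0.61, with 27.8, 0.0308 and 27.1 CPM in SP and 59.1, 0.0564 and 54.4 CPM in nonSP. Next were ms4a17a.6, also at 0.61, and cox8b at 0.66. In SP and nonSP of tumour 1279 pax5 had 2 and 2 counts, ighv1-4 2 and 1, and ms4a17a.6 1 and 0. The prior count weighs on the levels of these genes there. For ebf1a the nearest were sox5 at 0.44, nrros at 0.60 and atxn2 at 0.65. For POU2AF1 they were abat at 0.59, lrp1ba at 0.72 and mrap2a at 0.74. POU2AF1 had 1 and 1 counts in tumour 1279 and 10 and 7 in tumour 1314, where the prior count weighs on its level. In SP and nonSP of these tumours abat had 401 and 136 counts (1279) and 1426 and 1029 counts (1314). For gata3 the nearest were sept9b at 0.39, the ubiquitin ligase gene cblb at 0.50 and SATB1, a chromatin organiser of thymocytes in mammals, at 0.55. The nearest to bcl11ba was scin, at 1.24. In nonSP of tumour 1314 bcl11ba had 0 counts and scin 18, so the prior count set the level of bcl11ba there. That library enters the distance.

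ikzf1 and ETS1 had close neighbours, dusp16 at 0.21 and the phosphatase gene ptpn6 at 0.22 for ikzf1, and hivep2a at 0.25 for ETS1. The nearest to bcl6a was zbtb10 at 0.31, with 3195, 653 and 1524 counts in SP and 326, 147 and 154 counts in nonSP. Among the members themselves the most alike were ikzf1 and ETS1, at 0.91, and gata3 and ETS1, at 1.01. These distances describe 6 libraries of 3 tumours, and within a tumour the libraries share the cells' origin.

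Markers of some other cell types moved with the fractions. The 21 skeletal muscle genes summed to 102 to 136 CPM in SP and 21.6 to 56 CPM in nonSP, with parvalbumin pvalb1 at 0 counts in all libraries, and the 16 fibroblast and matrix genes to 18.8 to 39.6 CPM and 6.53 to 7.72 CPM. The myeloid gene mpx stood at 37.2, 3.54 and 3.12 CPM in SP and 2.77, 0.846 and 0.176 CPM in nonSP, while cebpa, a gene of the same list, was lower in SP in 3 of 3 tumours (log2 fold change -2.03 ± 0.37, edgeR adjusted p = 0.000585). The 24 myeloid genes summed to 150 to 1860 CPM in SP and 195 to 1130 CPM in nonSP. Their defining macrophage genes mpeg1.1 and mpeg1.2 had at most 7 counts in any library. The 13 genes of immature lymphocytes summed to 116 to 356 CPM in SP and 272 to 664 CPM in nonSP. Their summed log2 ratios within the tumours were -1.20, -0.90 and -1.23 with TMM factors. Of the 11 tested genes of this list 0 rose and 4 fell, while 13% of all tested genes rose and 9.4% fell. These values depend on the scaling. With library totals the ratios in tumours 1404, 1279 and 1314 were -0.34, -0.31 and -0.49 for rag2. For rag1 they were 0.05, 0.63 and 1.86. The part of such cell types in the values of bcl6a and ETS1 was not tested.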

How the data were processed

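The authors deposited raw counts per gene symbol, 1 table per library. The submitters' processing notes name build GRCz10, the aligner STAR (2.5.1b), featureCounts (1.28.1), edgeR (3.20.7), DESeq (1.30.0) and Cufflinks (2.2.1), with no roles. No strand setting is stated there, so overlapping and antisense genes cannot be separated. Reads of close paralogues may be split between copies.

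The counts were tested with edgeR 4.0.16 under R 4.3.3 (filterByExpr by group, minimum count 10, total 15; TMM; robust glmQLFit and glmQLFTest; tumour as block; adjusted p threshold 0.05). The SE was the log2 fold change divided by the square root of F. Ratios within tumours used a prior count of 2. Both fractions with a number come from 1 tumour by the design text, and their deviations from the group means correlated at 0.753, 0.839 and 0.818 over genes. Alternatives were DESeq2 1.42.0, limma 3.58.1 (voom), other scalings and filters, each tumour left out and no block. On simulated counts with the tumour block, 10.7% of genes changed 2-fold and 66% of those changed 4-fold were recovered among 15814 tested.

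The members and lists were chosen with earlier results of these data known. Named genes are the members, their paralogues, lineage markers, up to 6 genes per list with the lowest p and the 3 most alike genes per member, with an average log2 CPM of at least 3. The symbol cd3eap was left out of the T cell list because it is an RNA polymerase I subunit gene. Older symbols were matched through RefSeq names alone, and no coordinates or sequences were used. NK, erythroid, thrombocyte, endothelial and epithelial lists summed in SP to 0.50 to 1.57, 43.6 to 65.8, 0.959 to 4.32, 13.3 to 52.7 and 1.52 to 11.9 CPM, against 0.62 to 1.38, 35.1 to 90.3, 1.10 to 7.16, 5.84 to 36.2 and 0.751 to 2.45 CPM in nonSP.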

Additional observations from a re-analysis of the deposited data

How the results depend on the processing

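The counts of members called, 2 higher and 0 lower in SP, were the same with DESeq2, limma voom, RLE and upper-quartile factors, TMM computed on all but the ribosomal protein and mitochondrial genes, and the stricter filter. Without a filter 3 were higher. Library totals gave 6 members, 8015 genes and 41 other lymphoid factors higher, and 277 genes and 0 of these factors lower. With the stricter filter 1048 genes rose and 904 fell, with fewer genes tested (6090). Leaving out a tumour gave 1 member higher each time, 1141 to 1396 genes higher and 667 to 1685 lower, and 0 to 2 other lymphoid factors lower. With exact symbols only, a choice added after seeing the data, 0 members were higher.

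Without the replicate block edgeR called 0 members, 0 genes and 0 other lymphoid factors in either direction (1251 genes at an unadjusted p below 0.05). bcl6a then stood at 2.25 and ETS1 at 0.70, and POU2AF1 turned to 0.12 and ikzf1 to -0.07. ikzf1, at 0.02 in the fit of all tumours with TMM, also turned to -0.07 in DESeq2 and with RLE factors and to -0.05 with upper-quartile factors. The median of all tested genes moved by -0.07 in DESeq2, -0.08 with RLE factors and -0.06 with upper-quartile factors. With a tumour left out ikzf1 ranged from -0.38 to 0.20. The cause of these changes was not tested. pax5 and POU2AF1 turned to 0.35 and 0.70 with library totals. bcl11ba passed without a filter (1.19, edgeR adjusted p = 0.0353). tox, which the filter left out of the fit of all tumours, stood at 0.71 without a filter (edgeR adjusted p = 0.497). With library totals, as with TMM, 5 of 9 members were highest in tumour 1279. Counting error limits pax5, POU2AF1 and tox where they had under 10 counts.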

Other observations

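Some other factors on the wider list also differed widely in count between tumours, and these were picked after their values were seen. spi1b (PU.1) had 702 counts in SP and 529 in nonSP of tumour 1404 and 544 and 492 in tumour 1314, against 2 and 0 in tumour 1279. fli1a had 1477 counts in SP and 170 in nonSP of tumour 1279 and at most 56 in the other libraries. HHEX had 92 counts in SP and 61 in nonSP of tumour 1314 and at most 4 elsewhere. meis1b had 112 counts in SP and 13 in nonSP of tumour 1404 and at most 1 elsewhere. tcf7 had 5855 counts in SP and 1712 in nonSP of tumour 1279, 48 and 16 in tumour 1404 and 1183 and 503 in tumour 1314. The row runx1 had 0 counts in all 6 libraries.

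The genes of antigen receptor assembly differed as well. dntt, which adds nucleotides at joins, had 362 counts in SP and 334 in nonSP of tumour 1404 and 713 and 573 in tumour 1314, but 0 and 1 in tumour 1279. rag1 had 13924 counts in SP and 6031 in nonSP of tumour 1279, against 530 and 570 in tumour 1404 and 274 and 75 in tumour 1314.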
